A study of Arabidopsis thaliana with 24 samples.

Results

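Transcript levels were compared between seedlings of the line FyPP3DN and of the double mutant nrp1 nrp2, grown without abscisic acid (ABA). The differences rest on 6 of the 24 libraries of the series, 3 per genotype, chosen by their labels. The spread behind the p-values was estimated from all 24, including those with ABA. Of the 32833 genes listed per library, 18383 had an FPKM of at least 1 in at least 3 of these 6 libraries and were tested. FPKM counts fragments per kilobase of transcript and is scaled to the number of fragments in the library.

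ABA is a plant hormone that accumulates under drought and salt stress and slows seedling growth. It is bound by PYR/PYL receptors, which then inhibit clade A PP2C phosphatases and so release SnRK2 kinases that act on bZIP factors such as ABI5. FYPP3 and its close relative FYPP1 are catalytic subunits of the phosphatase PP6, which is known to remove phosphate from ABI5 and from the PIN carriers that export auxin. By the title of the series, NRP acts on FyPP3 when ABA restrains growth. The comparison thus sets a line with an altered phosphatase beside a mutant of the proposed upstream factor before the hormone is given.

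All groups were whole seedlings of the Columbia 0 background. FyPP3DN carries, by its name, a dominant-negative form of FYPP3, and the labels do not name the promoter that drives it. The nrp1 nrp2 double mutant is named without loci. Arabidopsis has 2 unrelated gene pairs with such names, the DCD-domain genes AT3G27090 and AT5G42050 and the histone chaperone genes AT1G74560 and AT1G18800. Wild type (WT) without ABA, also with 3 libraries, is given as a level beside both. Seedlings were 5 days old before a further 24 h by the sample labels, and grew for 6 days and then 1 day by the design text. Groups with ABA received 5 µM over that time. No label says whether replicates were grown apart, and p-values then describe only the spread among the libraries of the series, which may be technical.

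Depth, read from the steps between low FPKM values, was 16.63 to 21.75 (in units of 1e+06 fragments) in FyPP3DN and 16.89 to 19.34 in nrp1 nrp2. Replicates correlated across genes at 0.938 to 0.983 in FyPP3DN and at 0.955 to 0.989 in nrp1 nrp2. In each genotype 1 library was rich in plastid-encoded transcripts, with 18.8% of the summed FPKM in FyPP3DN replicate 2 and 15.4% in nrp1 nrp2 replicate 1. The 4 others held 0.0252% to 0.0462%. Markers of seedling tissues were present, since 14 of 16 root genes and all 23 nuclear photosynthesis genes passed the filter. The summed FPKM of the root genes was 35.4 to 102 in FyPP3DN and 54.5 to 101 in nrp1 nrp2, and that of the photosynthesis genes was 62080 to 71260 in FyPP3DN and 69510 to 74600 in nrp1 nrp2. In whole seedlings fewer cells of a type and less RNA per cell cannot be told apart.

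Few genes separated the genotypes. In FyPP3DN 44 genes (0.239% of those tested) were higher and 14 (0.0762%) were lower than in nrp1 nrp2, 58 (0.316%) in all, at an adjusted p under 0.05 in limma with Benjamini-Hochberg adjustment. An unadjusted p under 0.05 was found at 1370 genes. All 24 libraries entered that fit. A fit of only the 6 libraries compared gave 7 higher and 2 lower genes, and kept 9 of the 58 calls. The 9 were OSM34, TI1, BHLH38, AT2G15220, AT3G05945, AT3G27090 and AT4G05275 among the higher and MMZ3 and AT3G44006 among the lower. The groups did not overlap at any of the 58 genes, which were called on these same values, so this adds no support to the calls. Over all genes tested 4.57% lay wholly higher and 6.02% wholly lower in FyPP3DN. The genes that rose included an osmotin, glutathione transferases, the indole glucosinolate enzymes CYP81F2 and IGMT2, the trypsin inhibitor TI1, the defensin PDF2.1 and the iron response regulators BHLH38 and BHLH100. The genes lower in FyPP3DN than in nrp1 nrp2 included MMZ3, the ABA-degrading enzyme CYP707A2 and a proline dehydrogenase, at which FyPP3DN overlapped WT. The WT mean lay nearer to nrp1 nrp2 than to FyPP3DN at 36 of the 44 higher genes (81.8%) and 6 of the 14 lower ones (42.9%). Over all genes tested that share was 61%.

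With the plastid type as a block, 62 genes (0.337%) were higher and 34 (0.185%) lower, and all 58 calls were kept. On the plastid-poor libraries alone 25 (0.136%) were higher and 2 (0.0109%) lower, and 26 of the 58 calls were kept. FyPP3DN replicate 3 had the highest value in 27 of the 44 higher genes, against 9 for replicate 1 and 8 for replicate 2. Over all genes tested it was the highest of the FyPP3DN libraries in 7916 of 18383. Without that replicate 41 genes were higher and 30 lower, with 42 of the 58 calls kept.

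**Figure D1:**
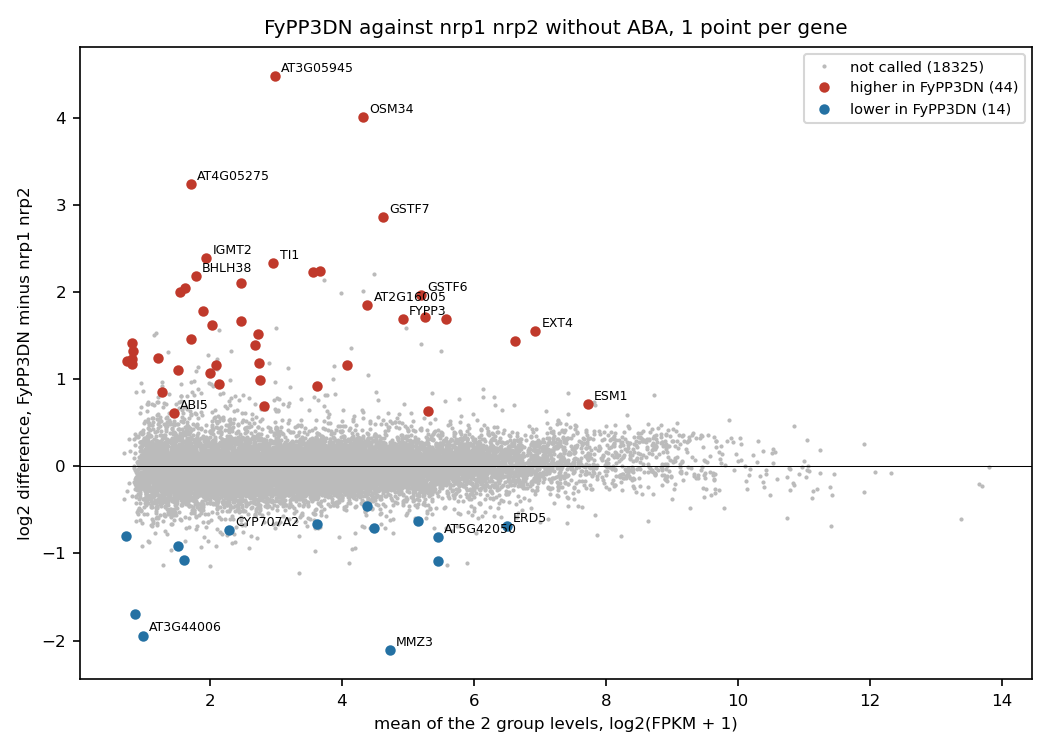
Each point is 1 of the 18383 genes tested, with the mean level as log2(FPKM + 1) on the x axis and the log2 difference FyPP3DN minus nrp1 nrp2 without ABA on the y axis. Red points are the 44 genes higher in FyPP3DN, with OSM34 at 4.0, and blue points are the 14 lower ones, with MMZ3 at -2.11.

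The targeted phosphatase gene was high in the line named for it. FYPP3 (chr3:6961736-6965206 in TAIR10.1, protein-coding) had an FPKM of 46.7, 34.5 and 85.2 in FyPP3DN, against 15.6, 15.2 and 15.2 in nrp1 nrp2 and 18.3, 15.7 and 12.7 in WT. Every FyPP3DN library lay above every library of the other genotypes, and the FyPP3DN libraries also differed most among themselves. The log2 difference, on the log2(FPKM + 1) scale used throughout, was 1.69 ± 0.20 (SE) with a limma adjusted p of 0.000127. FYPP3 was not called with only the 6 libraries compared in the fit, at a limma adjusted p of 0.255. A value per gene does not separate the transgene from the endogenous transcript. FYPP1 averaged 22 ± 0.813 FPKM in FyPP3DN and 23.5 ± 1.7 in nrp1 nrp2 (SD, n = 3 each), a log2 difference of -0.09 with a limma adjusted p of 0.853. None of the 7 other PP6 and PP2A subunits tested passed the test, among them the SAPS-domain regulators SAL1 to SAL4, and their differences ran from -0.08 to 0.18.

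In the DCD-domain pair the genes differed in opposite directions. AT3G27090 (chr3:9989511-9991903) had an FPKM of 64.9, 68.2 and 71.4 in FyPP3DN, against 21.1, 20.4 and 18.7 in nrp1 nrp2 and 67.4, 65.8 and 69.2 in WT. FyPP3DN and WT overlapped, and nrp1 nrp2 lay below both. The log2 difference was 1.72 ± 0.087 (limma, adjusted p = 9.06e-11). AT5G42050 (chr5:16815310-16817346) had 26.5, 30.9 and 38.5 in FyPP3DN, against 69.7, 58.1 and 44 in nrp1 nrp2 and 31.6, 29.6 and 31.4 in WT, so FyPP3DN again overlapped WT, and nrp1 nrp2 lay above both. Its log2 difference of -0.81 ± 0.16 had a limma adjusted p of 0.0294. That call was lost without FyPP3DN replicate 1 or 2, at adjusted p of 0.236 and 0.103, without nrp1 nrp2 replicate 1 or 2, at 0.27 and 0.139, and on the plastid-poor libraries, at 0.543. With only the 6 libraries compared in the fit the limma adjusted p was 0.702.

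The histone chaperone pair did not pass the test. AT1G74560 had 96.6, 125 and 98.9 FPKM in FyPP3DN, against 105, 85.2 and 84.8 in nrp1 nrp2 (log2 difference 0.21, limma adjusted p = 0.82). AT1G18800 had 42.4, 44.1 and 39.3 in FyPP3DN, against 39.7, 36.4 and 31.9 in nrp1 nrp2 (0.22, adjusted p = 0.836). The groups overlapped at both genes. The gene beside AT5G42050, RPN12b, a homologue of a proteasome regulatory subunit singled out after its values were seen, was also lower in FyPP3DN. It had 1.23, 1.36 and 0.72 FPKM in FyPP3DN, against 3.84, 2.98 and 3.41 in nrp1 nrp2 and 1.73, 1.3 and 1.35 in WT, with FyPP3DN overlapping WT (-1.08 ± 0.17, limma adjusted p = 0.00262, and 0.061 on the plastid-poor libraries). The RPN12b call was also lost with only the 6 libraries compared in the fit, at a limma adjusted p of 0.196.

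MMZ3 had the smallest adjusted p of the comparison. It encodes a ubiquitin-conjugating enzyme variant that works with UBC13-type enzymes to build ubiquitin chains, and lies at chr2:15142653-15144221. Its FPKM was 13.4, 11.4 and 10.4 in FyPP3DN, against 51.5, 56.5 and 54 in nrp1 nrp2 and 53.5, 58.9 and 56.4 in WT. FyPP3DN lay far below the other genotypes, which overlapped. The log2 difference was -2.11 ± 0.081 (limma, adjusted p = 1.40e-12). The 5 other MMZ and UBC13 genes, including the enzymes UBC35 and UBC36, had differences from -0.45 to 0.07, and none passed the test.

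None of the tested genes next to MMZ3, FYPP3 and AT3G27090 was called. Within 3 genes on either side of these 3 in the reference order, 14 genes were tested, and their differences ran from -0.34 to 0.28 with none past the threshold in limma. The immediate neighbours of MMZ3, OFP15 and TIM44-2, had differences of -0.34 and 0.11. Where FyPP3DN and nrp1 nrp2 are combined by label, without ABA, MMZ3 had 54.8, 53.7 and 56 FPKM and FYPP3 had 13.5, 12.9 and 12.8. Both genes were there at the levels of nrp1 nrp2 and WT, away from those of FyPP3DN. AT3G27090 had 16.5, 19.7 and 17.1 in those libraries, near its level in nrp1 nrp2.

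**Figure D2:**
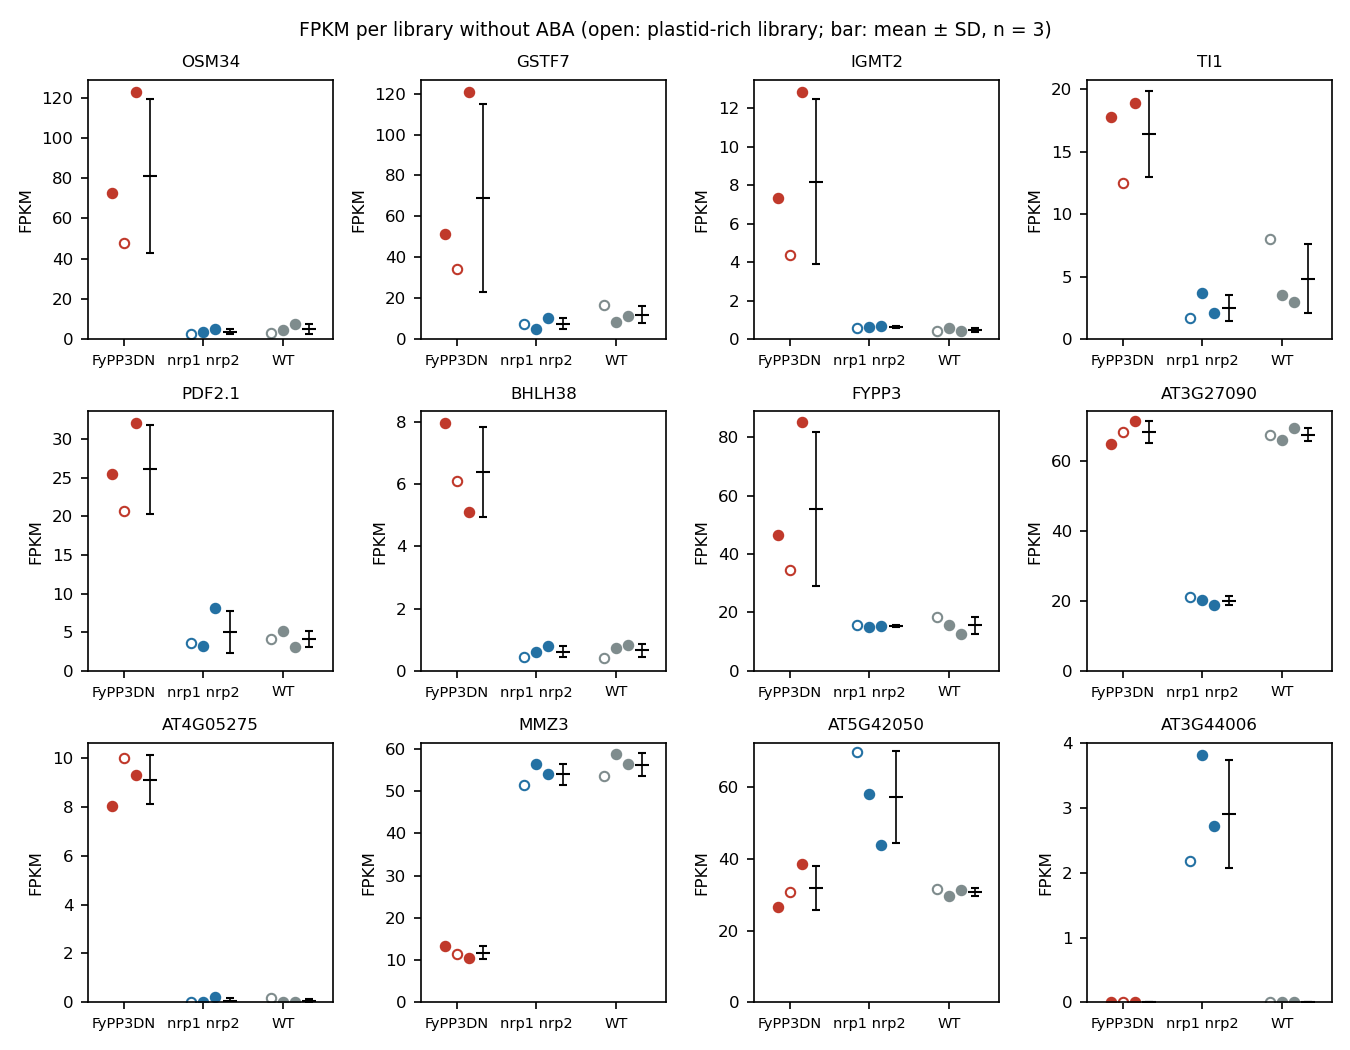
FPKM of 12 genes in each library without ABA, with FyPP3DN, nrp1 nrp2 and WT from left to right. Points are libraries, open points are plastid-rich libraries, and the bar is the mean ± SD of 3 libraries. MMZ3 lies at 10.4 to 13.4 in FyPP3DN and at 51.5 or above in the other genotypes, and AT3G27090 lies at 18.7 to 21.1 in nrp1 nrp2 and at 64.9 or above in the others.

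A few transcripts were at or near 0 in one genotype. They were singled out after their values were seen. AT4G05275 (chr4:4796764-4797004), annotated as a long non-coding RNA, had 8.01, 9.98 and 9.29 FPKM in FyPP3DN, against 0, 0 and 0.21 in nrp1 nrp2 and 0.17, 0 and 0 in WT (log2 difference 3.24 ± 0.15, limma adjusted p = 3.29e-11). FyPP3DN stood alone at this gene, and the labelled combination nrp1 nrp2 FyPP3DN was listed at 0 in every library. AT3G05945 (chr3:11510090-11510510), also a long non-coding RNA, had 24.4, 70.1 and 22.3 FPKM in FyPP3DN, against 0.84, 0.64 and 0.25 in nrp1 nrp2 and 67, 41.2 and 46.1 in WT (4.48 ± 0.34, limma adjusted p = 1.11e-07). Here nrp1 nrp2 was the low genotype. FyPP3DN overlapped WT only through its plastid-rich library, replicate 2 at 70.1, and its plastid-poor libraries, at 24.4 and 22.3, lay below every WT library.

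The reverse pattern was seen at AT3G44006 and AT1G28970. AT3G44006 (chr3:15796133-15796837), an uncharacterized protein gene, was listed at 0 in all 3 libraries of FyPP3DN and of WT and had 2.18, 3.81 and 2.72 FPKM in nrp1 nrp2 (limma adjusted p = 1.11e-07). AT1G28970, a tRNA gene, was listed at 0 in FyPP3DN and had 3.29, 2.24 and 1.44 in nrp1 nrp2 and 0.57, 0 and 0.73 in WT (adjusted p = 0.00383, and 0.21 on the plastid-poor libraries). No fold is given against a group listed at 0. AT3G06355, a non-coding RNA that overlaps a ribosomal RNA gene, had 181, 166 and 136 FPKM in FyPP3DN, against 75.4, 50.7 and 51.2 in nrp1 nrp2 and 123, 108 and 120 in WT (1.44 ± 0.17, adjusted p = 0.000128). The genotypes did not overlap there, but the protocol names poly(A) selection or rRNA depletion without saying which library had which, and the part of that step in this value was not tested.

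OSM34 rose the most of the protein-coding genes. It encodes an osmotin-like protein of the thaumatin family, known from responses to salt and pathogens, and lies at chr4:7024852-7026224. Its FPKM was 72.6, 48 and 123 in FyPP3DN, against 2.8, 3.5 and 5.31 in nrp1 nrp2 and 3.15, 4.5 and 7.84 in WT. Every FyPP3DN library lay far above those of the other genotypes, which overlapped. The log2 difference was 4.0 ± 0.40 (limma, adjusted p = 1.01e-05), and the call held under all 19 other settings.

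To show the sequence before the genes that rose, the 250 bases upstream of the annotated start of 4 of them are given 5′ to 3′ from TAIR10.1, by RefSeq. OSM34 and AT2G16005, a gene for an MD-2-related lipid recognition protein, are shown because their genotype difference changed with ABA, BHLH38 as a regulator of the iron response, and IGMT2 as an indole glucosinolate enzyme. All 4 genes lie on the minus strand, and the windows are chr4:7026225-7026474 for OSM34, chr2:6960217-6960466 for AT2G16005, chr3:21085246-21085495 for BHLH38 and chr1:7396824-7397073 for IGMT2. Capitals mark, on either strand, ACGTG, the core of the ABA-responsive element, and TTGAC, the core of the W box known to be bound by WRKY factors. The G box CACGTG holds ACGTG on each strand.
OSM34: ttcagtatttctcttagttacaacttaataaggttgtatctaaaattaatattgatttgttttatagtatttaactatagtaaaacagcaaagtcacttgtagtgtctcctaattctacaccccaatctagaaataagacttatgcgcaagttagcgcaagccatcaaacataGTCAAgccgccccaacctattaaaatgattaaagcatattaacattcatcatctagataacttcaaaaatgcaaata
AT2G16005: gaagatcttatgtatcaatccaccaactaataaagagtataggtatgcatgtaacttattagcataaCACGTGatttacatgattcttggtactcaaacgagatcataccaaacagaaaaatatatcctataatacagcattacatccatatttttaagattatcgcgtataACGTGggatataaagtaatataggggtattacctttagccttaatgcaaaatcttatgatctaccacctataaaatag
BHLH38: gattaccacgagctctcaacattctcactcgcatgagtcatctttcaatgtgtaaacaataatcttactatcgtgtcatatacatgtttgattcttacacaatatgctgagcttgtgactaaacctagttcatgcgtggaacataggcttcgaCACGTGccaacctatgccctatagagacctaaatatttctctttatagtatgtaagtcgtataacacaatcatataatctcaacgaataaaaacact
IGMT2: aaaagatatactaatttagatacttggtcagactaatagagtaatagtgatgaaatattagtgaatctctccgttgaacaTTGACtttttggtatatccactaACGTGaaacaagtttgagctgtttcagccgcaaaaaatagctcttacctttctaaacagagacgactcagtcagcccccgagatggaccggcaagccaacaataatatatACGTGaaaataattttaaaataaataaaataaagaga

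The OSM34 window holds 1 W box core and no ACGTG. The AT2G16005 window holds ACGTG 3 times, counting each strand, 2 of them in 1 G box, and no W box core. BHLH38 has 1 G box, counted as 2 ACGTG, and no W box core, and IGMT2 has 2 ACGTG and 1 W box core. Over the 44 genes higher in FyPP3DN, 65.9% of these windows held TTGAC, 40.9% ACGTG and 20.5% CACGTG on either strand, beside 44.6%, 23.1% and 7.3% of the 18303 tested genes with an annotated start. Over the 14 lower genes the shares were 35.7%, 28.6% and 7.14%. These are matches of letters, not bound sites.

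TI1 and PDF2.1 were also higher in FyPP3DN. TI1, a trypsin inhibitor, had 17.8, 12.5 and 18.9 FPKM in FyPP3DN, against 1.71, 3.67 and 2.11 in nrp1 nrp2 and 7.99, 3.52 and 2.97 in WT (2.33 ± 0.31, limma adjusted p = 0.00032). PDF2.1, of the plant defensin family, had 25.5, 20.7 and 32.1 in FyPP3DN, against 3.65, 3.22 and 8.15 in nrp1 nrp2 and 4.08, 5.22 and 3.06 in WT (2.24 ± 0.29, adjusted p = 0.000258). At both genes nrp1 nrp2 and WT overlapped and FyPP3DN lay above them. The PDF2.1 call was lost with only the 6 libraries compared in the fit, at a limma adjusted p of 0.111, and the TI1 call held. The hormone lists of immunity did not pass. None of 10 salicylic acid and immunity genes was called in limma, 1 had an unadjusted p under 0.05, and 1 of the 10 differences was above 0. None of 9 jasmonate genes was called and 1 had an unadjusted p under 0.05, with VSP1 at 1.28 and an adjusted p of 0.378. The medians were -0.12 and 0.20, beside -0.03 over all genes tested.

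Of the glutathione transferases, which attach glutathione to reactive compounds, 2 rose. GSTF7 had 51.4, 34.5 and 121 FPKM in FyPP3DN, against 7.61, 5.14 and 10.3 in nrp1 nrp2 and 16.6, 8.67 and 11.2 in WT (2.85 ± 0.48, limma adjusted p = 0.00484). Its tandem neighbour GSTF6 had 73.1, 49.9 and 96.1 in FyPP3DN, against 19.2, 16.4 and 16.7 in nrp1 nrp2 and 35, 21.3 and 21.6 in WT (1.96 ± 0.36, adjusted p = 0.0124). FyPP3DN lay above both other genotypes at each gene. Neither was called with only the 6 libraries compared in the fit, at limma adjusted p of 0.184 for GSTF7 and 0.0584 for GSTF6. The copies are nearly identical, so how reads were split between them is uncertain. The GSTF6 call was lost without FyPP3DN replicate 1 or 3, at adjusted p of 0.0683 and 0.0687, without nrp1 nrp2 replicate 2 or 3, at 0.0672 and 0.0737, and on the plastid-poor libraries, at 0.061. The 8 other transferases tested were not called, with differences from -0.23 to 0.79.

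The indole glucosinolate enzymes that rose act late in the pathway. CYP81F2 hydroxylates the indole ring and IGMT2 methylates the product, which serves in defence. IGMT2 had 7.32, 4.38 and 12.8 FPKM in FyPP3DN, against 0.57, 0.63 and 0.67 in nrp1 nrp2 and 0.45, 0.61 and 0.43 in WT (2.39 ± 0.28, limma adjusted p = 0.000117). CYP81F2 had 7.1, 3.64 and 8.16 in FyPP3DN, against 1.64, 1.15 and 1.08 in nrp1 nrp2 and 1.21, 1.43 and 0.92 in WT (1.62 ± 0.22, adjusted p = 0.000563). No library of nrp1 nrp2 or WT reached the FyPP3DN range at either gene. Both calls were lost with only the 6 libraries compared in the fit, at limma adjusted p of 0.105 for IGMT2 and 0.202 for CYP81F2. These 2 of 12 members tested passed, while the earlier enzymes CYP79B2, CYP79B3 and CYP83B1 had differences of 0.16, -0.22 and 0.06 and the regulator MYB51 one of 0.46. Reads may be shared between IGMT2 and its close copy IGMT1, which had -0.16.

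CYP71A12, a cytochrome P450 that acts on an indole intermediate shared with camalexin synthesis, had 3.63, 1.25 and 12.1 FPKM in FyPP3DN, against 0.16, 0.43 and 0.28 in nrp1 nrp2 and 0.88, 0.28 and 0.49 in WT (2.00 ± 0.39, limma adjusted p = 0.0229). The FyPP3DN libraries ranged widely but did not overlap the others, and reads may be shared with the close copy CYP71A13. The call was lost without FyPP3DN replicate 1 or 3, at adjusted p of 0.0752 and 0.0505, and without nrp1 nrp2 replicate 1, 2 or 3, at 0.143, 0.0691 and 0.116. It was also lost with only the 6 libraries compared in the fit, at a limma adjusted p of 0.819, and with a pseudocount of 5, at 0.107. None of the 11 aliphatic glucosinolate genes was called in limma and 2 had an unadjusted p under 0.05. All 11 differences were below 0, with a median of -0.21. ESM1, which steers glucosinolate breakdown and was singled out after its values were seen, had 293, 256 and 260 FPKM in FyPP3DN, against 171, 169 and 153 in nrp1 nrp2 and 226, 224 and 191 in WT (0.71 ± 0.11, adjusted p = 0.00292). FyPP3DN was the highest genotype and nrp1 nrp2 the lowest, and the adjusted p was 0.0684 on the plastid-poor libraries. ESM1 was also not called with only the 6 libraries compared in the fit.

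Of the regulators of the iron response, BHLH38 and BHLH100 rose. They encode related basic helix-loop-helix factors that are induced when iron is short and act with FIT. BHLH38 had 7.95, 6.11 and 5.1 FPKM in FyPP3DN, against 0.44, 0.60 and 0.81 in nrp1 nrp2 and 0.42, 0.73 and 0.83 in WT (2.18 ± 0.34, limma adjusted p = 0.0029). BHLH100 had 7.83, 4.63 and 5.29 in FyPP3DN, against 1.38, 0.70 and 0.89 in nrp1 nrp2 and 1.95, 2.59 and 0.95 in WT (1.78 ± 0.35, adjusted p = 0.0229). FyPP3DN was the high genotype at each. BHLH38 overlaps the gene AT3G56960 in the annotation, which had a difference of -0.17, and without strand information their reads cannot be told apart. The BHLH100 call was lost without FyPP3DN replicate 1 or 3, at adjusted p of 0.173 and 0.0505, and without nrp1 nrp2 replicate 2 or 3, at 0.139 and 0.124. With a pseudocount of 5 in place of 1 the adjusted p was 0.176 for BHLH38 and 0.388 for BHLH100. With only the 6 libraries compared in the fit the BHLH100 call was lost, at a limma adjusted p of 0.0704, and the BHLH38 call held.

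EXT4, an extensin of the cell wall, was abundant in every library and rose. It had 187, 209 and 224 FPKM in FyPP3DN, against 89.1, 64.4 and 58.4 in nrp1 nrp2 and 83.4, 72 and 84 in WT (1.55 ± 0.23, limma adjusted p = 0.00144). FyPP3DN lay above both other genotypes, which overlapped. EXT4 just missed the threshold with only the 6 libraries compared in the fit, at a limma adjusted p of 0.0511. None of 15 cell wall expansion genes, a list of expansins and XTH enzymes, was called or had an unadjusted p under 0.05 in limma, and their median was 0.14.

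Within ABA signalling 1 transcription factor rose and 1 degrading enzyme fell. ABI5, the bZIP factor that halts early seedling growth, had 2.46, 2.08 and 2.62 FPKM in FyPP3DN, against 1.18, 1.3 and 1.18 in nrp1 nrp2 and 1.07, 1.5 and 1.85 in WT (0.61 ± 0.12, limma adjusted p = 0.0246). Its level was low in every library, but FyPP3DN did not overlap the others. The call was lost without FyPP3DN replicate 1 or 3, at adjusted p of 0.13 and 0.0925, without nrp1 nrp2 replicate 1, 2 or 3, at 0.143, 0.0718 and 0.128, and on the plastid-poor libraries, at 0.198. CYP707A2, an ABA 8′-hydroxylase, had 2.64, 2.53 and 3.31 in FyPP3DN, against 5.51, 5.21 and 5.24 in nrp1 nrp2 and 4.76, 4.92 and 3.88 in WT (-0.73 ± 0.12, limma adjusted p = 0.00292). FyPP3DN was the lowest genotype and nrp1 nrp2 the highest, and the adjusted p was 0.21 on the plastid-poor libraries. With only the 6 libraries compared in the fit neither call held, at limma adjusted p of 0.577 for ABI5 and 0.255 for CYP707A2. The related hydroxylases CYP707A1 and CYP707A3 had differences of -0.01 and -0.26.

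The rest of the ABA pathway did not pass the test. None of 18 ABA-responsive genes was called in limma and 2 had an unadjusted p under 0.05. Of their differences 11 were above 0, and the median was 0.12. RAB18, a dehydrin, had the largest at 0.92 with an adjusted p of 0.80. None of 5 clade A PP2C genes or 9 ABA receptor genes was called or had an unadjusted p under 0.05, with medians of -0.07 and 0.06. The kinase genes SNRK2.2, SNRK2.3 and OST1 had differences of 0.02, -0.07 and -0.12.

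Among the other genes lower in FyPP3DN than in nrp1 nrp2 were OCT3 and ERD5. OCT3, an organic cation and carnitine transporter, had 14.8, 15.6 and 19.3 FPKM in FyPP3DN, against 30.1, 27.2 and 25.4 in nrp1 nrp2 and a mean of 21 ± 2.58 (SD, n = 3) in WT (-0.71 ± 0.11, limma adjusted p = 0.00262). ERD5, the proline dehydrogenase that breaks down proline in mitochondria, had 71.3, 65.2 and 73.9 in FyPP3DN, against 117, 110 and 113 in nrp1 nrp2 and 61.2, 62.2 and 79.9 in WT (-0.69 ± 0.12, adjusted p = 0.0106). At both genes FyPP3DN overlapped WT and nrp1 nrp2 was the high genotype. The ERD5 call was lost without FyPP3DN replicate 2, at an adjusted p of 0.0631, and without nrp1 nrp2 replicate 1 or 3, at 0.0693 and 0.0545. On the plastid-poor libraries the adjusted p was 0.186 for OCT3 and 0.353 for ERD5. Neither was called with only the 6 libraries compared in the fit, at limma adjusted p of 0.317 for OCT3 and 0.151 for ERD5.

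Outside the genes picked by the naming rule, 29 genes were called higher, with differences from 0.63 to 4.48, and 8 lower, from -1.94 to -0.45. The examples here were chosen after their values were seen. Transcription factors among them were NAC003, NAC042 and WRKY45, with differences of 1.16, 1.21 and 1.07 and limma adjusted p of 0.00337, 0.00448 and 0.0124. On the plastid-poor libraries the adjusted p were 0.186, 0.202 and 0.123, and the WRKY45 call was also lost without FyPP3DN replicate 1 and without nrp1 nrp2 replicate 3, at adjusted p of up to 0.118. NAC042 overlaps AT2G42990 in the annotation, and without strand information their reads cannot be told apart. Stress-type genes among them were AT2G43620, of the chitinase family, AT4G12500, of the lipid-transfer protein family, and LSU1, induced by sulfur shortage. AT2G43620 had 125, 61 and 72.1 FPKM in FyPP3DN, against 22.3, 30.9 and 21.8 in nrp1 nrp2 (1.69 ± 0.24, limma adjusted p = 0.000853), and AT4G12500 and LSU1 had differences of 2.1 and 1.46. The groups did not overlap at any of them. With only the 6 libraries compared in the fit, AT2G43620, AT4G12500 and LSU1 were not called, at limma adjusted p of 0.196, 0.36 and 0.14. NAC003, NAC042 and WRKY45 were not called in that fit either.

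Over all 28 gene lists, 290 of 357 genes were tested, 7 were called higher and 4 lower, 3.79% of those tested, beside 0.316% of all genes tested. An unadjusted p under 0.05 was found at 28 (9.66%), beside 7.45% of all genes. The lists were chosen with earlier results of these data known, so the shares are given as a description. None of 26 early auxin genes, of the Aux/IAA, GH3 and SAUR families that auxin induces quickly, was called in limma, and 2 had an unadjusted p under 0.05. Their median was -0.19 and 5 of 26 were above 0, beside 7920 of 18383 over all genes tested. The summed FPKM of the auxin list was 355 to 462 in FyPP3DN and 442 to 495 in nrp1 nrp2, which overlapped. None of 14 auxin transport genes was called or had an unadjusted p under 0.05, with a median of -0.05.

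Tissue lists gave no call. None of 23 nuclear photosynthesis genes passed in limma and 2 had an unadjusted p under 0.05, with 2 above 0 and a median of -0.13. None of 5 stomatal lineage genes, which mark dividing leaf epidermis, was called and 1 had an unadjusted p under 0.05. All 5 were below 0, and their summed FPKM of 21.2 to 30.6 in FyPP3DN did not overlap the 32.3 to 36.6 in nrp1 nrp2. The part of these cells in the results above was not tested. The root marker and cell cycle lists had medians of -0.07 and -0.06, with no gene called or at an unadjusted p under 0.05.

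**Figure D3:**
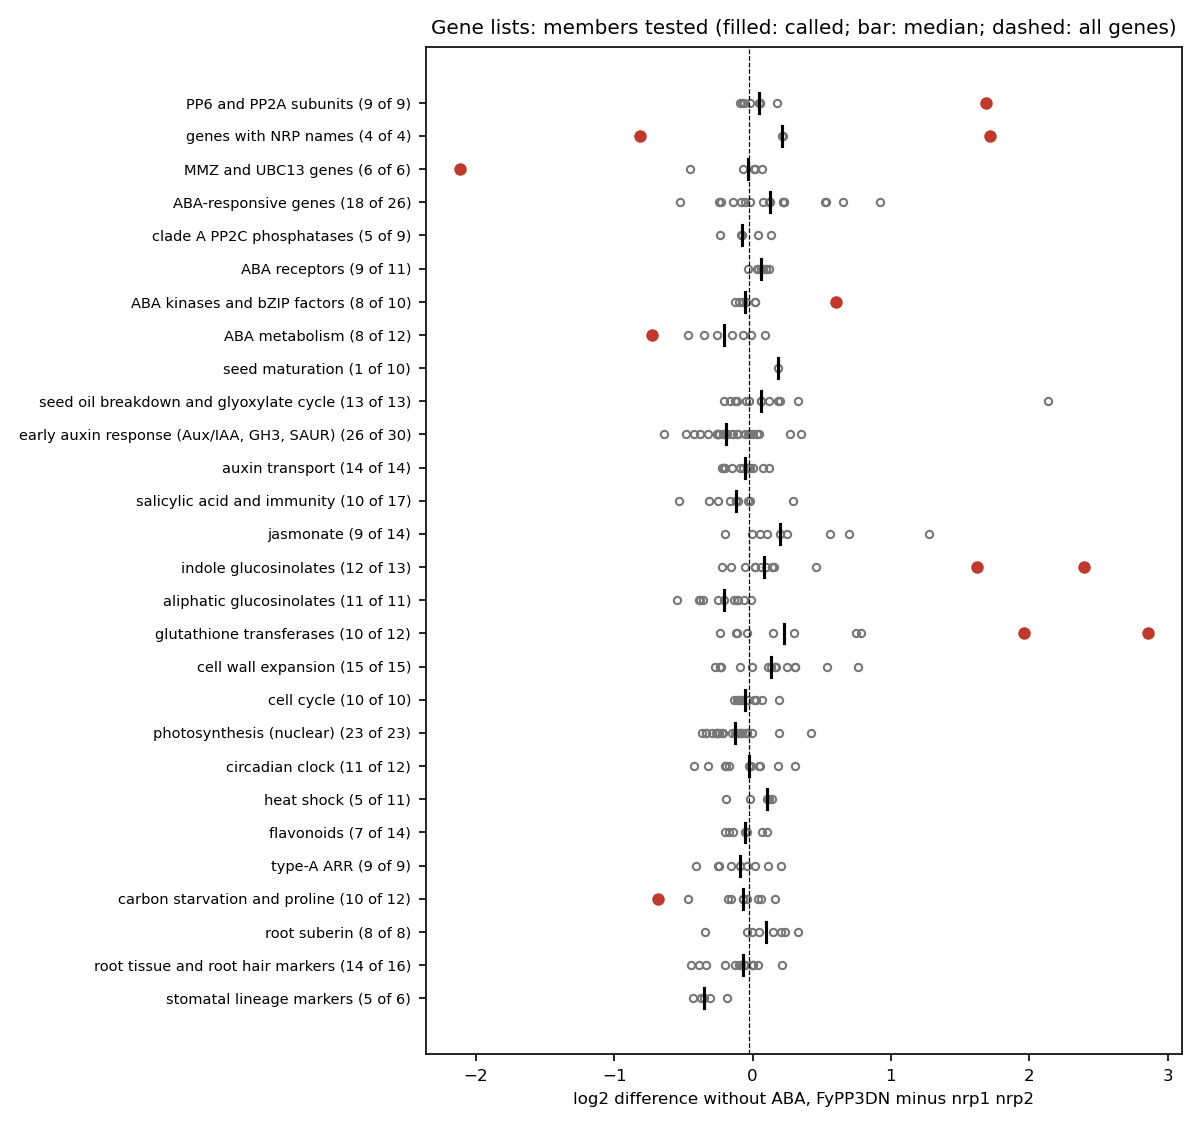
Each point is a member of one of 28 gene lists, placed by its log2 difference FyPP3DN minus nrp1 nrp2 without ABA. Filled points passed the test, bars are list medians and the dashed line is the median of all genes tested, -0.03. The 11 filled points run from MMZ3 at -2.11 to GSTF7 at 2.85.

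The same genotypes were also grown with ABA, in libraries that share none with the comparison above. There 8 genes (0.0435%) were higher and 22 (0.12%) lower in FyPP3DN than in nrp1 nrp2 in limma, 30 (0.163%) in all. With the plastid type as a block 20 (0.109%) were higher and 79 (0.43%) lower, and on the plastid-poor libraries 4 (0.0218%) were higher and 8 (0.0435%) lower. Of the 58 genes called without ABA, 54 had the same sign with ABA (93.1%, beside 57.2% of all genes tested), and 11 were called with ABA. At 28 of the 58 the groups with ABA did not overlap in the same direction, beside 6.87% of all genes wholly higher and 4.3% wholly lower. With ABA the 44 higher genes had a median difference of 0.49 and the 14 lower ones one of -0.46, beside 0.04 over all genes tested. The 58 were chosen by their differences without ABA, so these medians are not set against those without ABA.

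The 11 genes called in both conditions all kept their direction, and were 19.0% of the calls without ABA and 36.7% of those with ABA. With ABA, MMZ3 had 12.5, 13 and 12.9 FPKM in FyPP3DN, against 50.5, 48 and 48.7 in nrp1 nrp2 (-1.86 ± 0.081, limma adjusted p = 8.40e-12). AT3G27090 had 75.3, 68 and 72.5 in FyPP3DN, against 13.8, 13.4 and 12.7 in nrp1 nrp2 (2.35 ± 0.087, adjusted p = 6.58e-13). The groups did not overlap at either gene. AT4G05275, AT3G05945, AT3G44006, AT3G06355, AT5G42050, RPN12b and OCT3 were also called, as were HEI10, a meiotic crossover factor, and AT4G08690, of the Sec14-like lipid transfer family. HEI10 overlaps AT1G53480, AT1G07887 and AT1G53500 in the annotation, and AT4G08690 overlaps AT4G08685. Without strand information the reads of overlapping genes cannot be told apart. The calls with ABA of OCT3, AT5G42050, RPN12b and HEI10 were lost on the plastid-poor libraries, at adjusted p of 0.142, 0.322, 0.0648 and 0.0648, and those of the 7 others held. Without ABA, the AT4G08690 call was lost without FyPP3DN replicate 1 or 2 and without nrp1 nrp2 replicate 1, 2 or 3, at adjusted p of up to 0.183.

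FYPP3 was not called with ABA. It had 24.9, 22.5 and 29.3 FPKM in FyPP3DN, against 16.5, 18 and 16.2 in nrp1 nrp2 (0.56 ± 0.20, limma adjusted p = 0.322), and the groups did not overlap. The change of its difference, with ABA minus without, was -1.12 ± 0.28 with an adjusted p of 0.491.

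**Figure D4:**
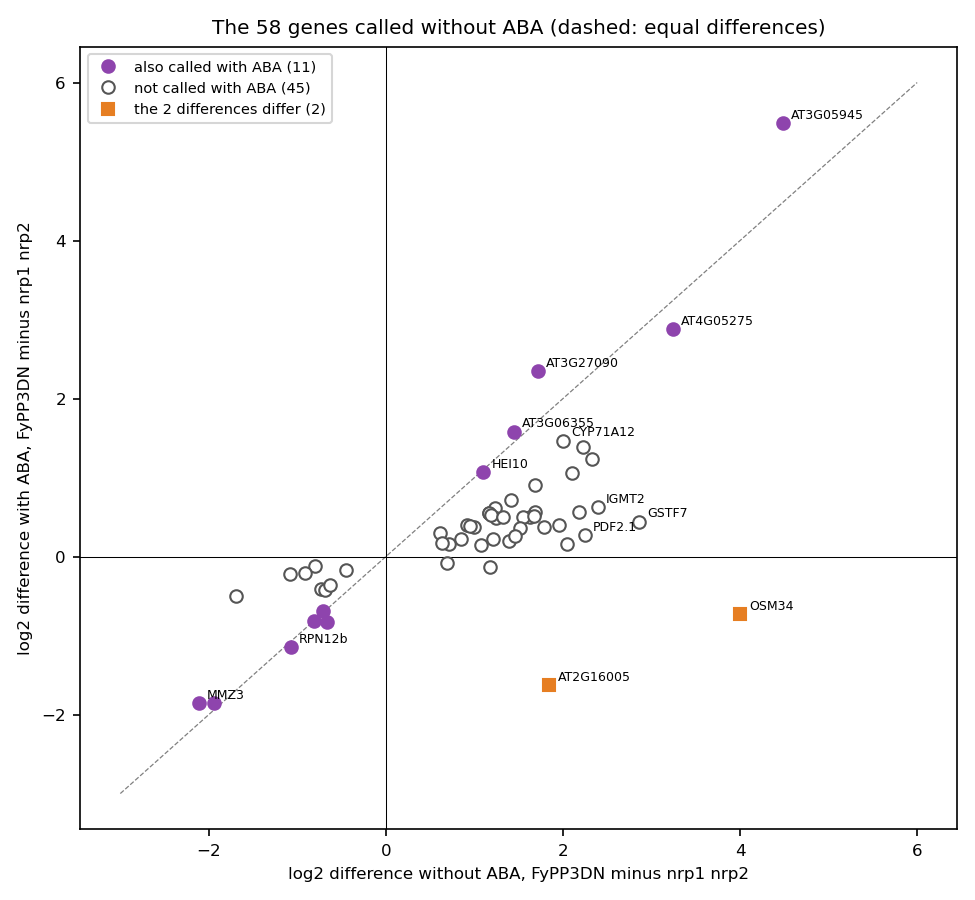
The 58 genes called without ABA, with the log2 difference FyPP3DN minus nrp1 nrp2 without ABA on the x axis and with ABA on the y axis. Filled circles are genes called in both conditions, open circles are genes called without ABA, squares are the 2 genes whose differences differ from each other, and the dashed line marks equal differences. OSM34 lies at 4.0 without ABA and at -0.73 with ABA.

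The genotype difference itself changed with ABA at 2 genes (0.0109% of those tested), OSM34 and AT2G16005. With ABA, OSM34 had 56.2, 36.4 and 124 FPKM in FyPP3DN, against 73.9, 177 and 90.06 in nrp1 nrp2 and 90.3, 112 and 95.7 in WT, and all 3 genotypes overlapped. Its difference was -0.73 with ABA (adjusted p = 0.502), and the change, with ABA minus without, was -4.73 ± 0.57 (limma, adjusted p = 0.00112). In nrp1 nrp2 and WT the gene was low without the hormone and high with it, while the range of FyPP3DN with ABA overlapped its range without. With ABA, 2 of the 3 FyPP3DN libraries lay below every library of nrp1 nrp2 and WT.

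AT2G16005 (chr2:6959092-6960216) had 34.4, 20.3 and 67.8 FPKM in FyPP3DN without ABA, against 7.23, 10.6 and 10.6 in nrp1 nrp2 and 6.72, 9.43 and 8.28 in WT (1.85 ± 0.35, limma adjusted p = 0.0182). With ABA it had 45, 22.3 and 43 in FyPP3DN, against 92.4, 142 and 103 in nrp1 nrp2 and 172, 177 and 161 in WT (-1.63 ± 0.35 between FyPP3DN and nrp1 nrp2, adjusted p = 0.0745). FyPP3DN was the high genotype without ABA and the low one with it, and the change was -3.48 ± 0.50 (limma, adjusted p = 0.00797). The call without ABA was lost without FyPP3DN replicate 1 or 3, at adjusted p of 0.0683 and 0.081, and without nrp1 nrp2 replicate 1, 2 or 3, at 0.144, 0.0512 and 0.0576. With only the 6 libraries without ABA in the fit, that call was lost at a limma adjusted p of 0.451. The change itself was called at both genes in every fit with 1 of the 12 libraries left out, and missed the threshold at both on the plastid-poor libraries, at an adjusted p of 0.0515. It was also not called with only those 12 libraries in the fit, at limma adjusted p of 0.197 for OSM34 and 0.297 for AT2G16005.

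**Figure D5:**
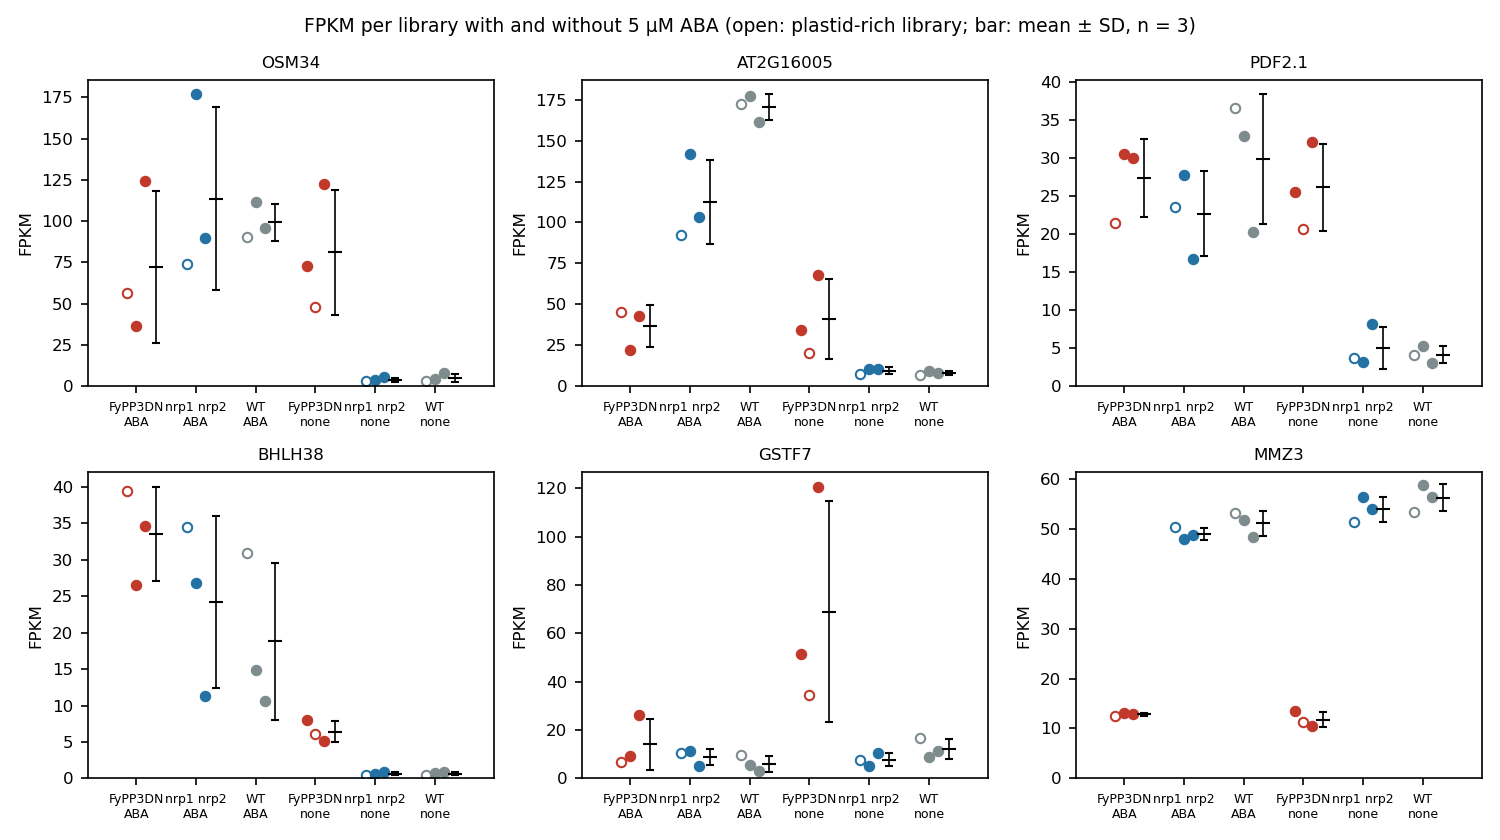
FPKM of 6 genes per library in FyPP3DN, nrp1 nrp2 and WT, with 5 µM ABA and without. Points are libraries, open points are plastid-rich libraries, and the bar is the mean ± SD of 3 libraries. OSM34 in FyPP3DN spans 36.4 to 124 with ABA and 48.0 to 123 without, while nrp1 nrp2 spans 73.9 to 177 with ABA and 2.8 to 5.31 without.

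Part of the genes higher in FyPP3DN than in nrp1 nrp2 were genes that ABA raised in WT, in libraries of neither genotype compared. In WT 701 genes (3.81% of those tested) rose with ABA and 590 (3.21%) fell in limma. Of the 44 genes higher in FyPP3DN, 17 rose with ABA in WT, which is 38.6% of the 44 and 2.43% of the 701, and 4 fell. Of the 14 lower genes 1 rose and 3 fell. OSM34, AT2G16005, PDF2.1, BHLH38 and BHLH100 rose with ABA in WT, by 4.09, 4.24, 2.57, 3.45 and 2.81 on the log2 scale, with adjusted p from 1.14e-07 to 2.07e-05.

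Some other named genes high in FyPP3DN were not called in the WT response. GSTF7, GSTF6, IGMT2, CYP81F2 and CYP71A12 had WT differences with ABA of -0.96, -0.68, -0.26, -0.36 and -0.44, with limma adjusted p from 0.336 to 0.779. EXT4, high in FyPP3DN, fell with ABA in WT (-0.90, adjusted p = 0.0184). ABI5 rose there (0.47, adjusted p = 0.0199). CYP707A2, low in FyPP3DN, rose with ABA in WT (0.48, adjusted p = 0.0126). OCT3 and ERD5 fell there (-0.77 and -1.10, adjusted p = 9.76e-05 and 5.84e-06). At these genes nrp1 nrp2 was the high genotype without ABA, and FyPP3DN overlapped WT.

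With ABA the genotypes differed at some genes that did not pass without it. LEA18, a late embryogenesis abundant protein gene, had 29.9, 7.91 and 23.5 FPKM in FyPP3DN with ABA, against 1.89, 1.96 and 1.65 in nrp1 nrp2 (2.74 ± 0.38, limma adjusted p = 0.00116). ICL, the isocitrate lyase of the glyoxylate cycle that turns seed oil into sugar, had 11.6, 13.5 and 22.5 in FyPP3DN with ABA, against 0.41, 0.80 and 0.80 in nrp1 nrp2 (3.29 ± 0.58, adjusted p = 0.0162). AT5G59720, a small heat shock protein gene, had 6.89, 5.69 and 5.19 in FyPP3DN with ABA, against 17.5, 15.2 and 14.6 in nrp1 nrp2 (-1.28 ± 0.20, adjusted p = 0.0064). The groups with ABA did not overlap at these genes. Without ABA, ICL had 10.2, 9.65 and 56.1 in FyPP3DN, against 1.04, 14.5 and 1.54 in nrp1 nrp2, and the groups overlapped (2.14 ± 0.58, adjusted p = 0.20). The changes of the difference with ABA were 1.28, 1.16 and -1.40 for LEA18, ICL and AT5G59720, and none was called, at adjusted p of 0.955, 0.975 and 0.194. THI2.2, a thionin gene, SRG3 and NEET, an iron-sulfur protein gene, were also lower in FyPP3DN with ABA, at -1.43, -1.12 and -0.94. None of these 6 calls held on the plastid-poor libraries, at adjusted p from 0.116 to 0.20.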

How the data were processed

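RNA was sequenced from whole Arabidopsis seedlings in 24 libraries, 3 for each of 8 groups. The deposited values are FPKM per gene, with no counts used here. The submitters' processing notes list Trimmomatic 0.30, a read trimmer, HISAT2 2.0.1, an aligner, and the build TAIR10. For the counting tool, the annotation and strandedness the sources used here give nothing. Low FPKM values of genes shorter than 400 bases fell on whole-fragment steps (within 0.1 fragments for 99.76% to 100% of those used, by library), which gave the depth of 16.63 to 29.12 (in units of 1e+06 fragments). Precision at low levels is limited by it.

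Values were taken as log2(FPKM + 1), so fold changes of low genes are understated. Genes reaching 1 FPKM in 3 or more of the 6 libraries entered limma 3.58.1 (R 4.3.3), with all 24 libraries in 1 fit over the 8 groups, an intensity trend and Benjamini-Hochberg adjustment over 18383 genes. The same fit gave the comparison with ABA, the change between conditions and the WT response. The procedure was run on simulated data with independent noise for each gene and library. Those data held no plastid-rich library, so the run cannot show how the procedure fares with that library type. Of the listed genes 32548 matched RefSeq's TAIR10.1, a release of the same assembly, and 10804 had a symbol.

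Named genes were the 12 largest rises and falls among called genes with a symbol, no overlap between groups and 5 or more FPKM on average in whichever group was higher (4 falls qualified), the 6 line genes, up to 3 called genes per list, 3 neighbours on each side of MMZ3, FYPP3 and AT3G27090, 5 genes per direction with ABA, and all genes whose difference changed. The comparison, members and lists were chosen with earlier results of these data known. Alternatives covered the libraries in the fit, replicate and plastid-type blocks, pseudocount, filter, scaling and variance model.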

Additional observations from a re-analysis of the deposited data

Results flagged for a closer look

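At 2 genes the difference between FyPP3DN and nrp1 nrp2 with ABA was itself different from that without ABA, by a test of the change in limma. At OSM34 the log2 difference FyPP3DN minus nrp1 nrp2 was -0.73 with ABA and 4.0 without, a change of -4.73 with an adjusted p of 0.00112. At AT2G16005 it was -1.63 with ABA and 1.85 without, a change of -3.475 with an adjusted p of 0.00797. On the plastid-poor libraries the changes were -5.06 and -4.02 with an adjusted p of 0.0515 each, and with the plastid type as a block the adjusted p were 7.12e-05 and 0.0030. Neither change was called with only the groups compared in the fit, at limma adjusted p of 0.197 and 0.297. Both genes rose with ABA in WT, by 4.09 and 4.24.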

How the results depend on the processing

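No call of the 58 changed direction under any of the 19 other settings, 6 of the 58 were called in all of them and 2 more in the 18 in which they were tested, and 32 of 58 were kept whichever library was left out. With only the libraries of each comparison in the fit, 7 genes were higher and 2 lower without ABA (9 in all). Then 7 were called with ABA, and no change of the difference was called in limma, with 516 at an unadjusted p under 0.05. In that fit FYPP3 had 1.69 (adjusted p = 0.255) and AT5G42050 -0.81, neither called. On the plastid-poor libraries 25 were higher and 2 lower (27 in all), 12 were called with ABA, 0 changes were called with 1170 at an unadjusted p under 0.05, 6 of the 11 list members stayed called, and AT5G42050 had -0.65. With the plastid type as a block 34 were lower and 96 called in all, and 99 with ABA. At a filter of FPKM 5, where 35 of the 58 were tested, 23 were higher and 9 lower (32 in all). The cause of these shifts was not tested, beyond the fewer libraries or genes entering.

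Leaving out 1 library gave 27 to 44 higher genes, 6 to 30 lower genes and 35 to 71 in all without ABA. The highest total came without FyPP3DN replicate 3 and the lowest without nrp1 nrp2 replicate 3, and 6 lower genes were left without nrp1 nrp2 replicate 1. With ABA it gave 13 to 33 calls, with 13 without FyPP3DN replicate 2 or nrp1 nrp2 replicate 2, and for the change of the difference 2 to 9, with 9 without FyPP3DN replicate 2 of the libraries without ABA. AT5G42050 ran from -0.99 to -0.66. Rescaling moved the median of all genes by less than 0.1, and the totals were 55, 61 and 66.

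With the replicate number as a block 65 genes were called, 55 of them among the 58, 36 with ABA and 2 for the change. Deviations of same-numbered libraries from their group means had correlations of -0.668, -0.577 and 0.704 without ABA. In replicates 1 and 2 a plastid-rich library was set against a plastid-poor one, and in replicate 3 both were plastid-poor. The correlations therefore cannot show whether the numbers pair the samples, and the main fit used no pairing. Depth limits the genes below 1 FPKM, which were mostly left untested.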

Other observations

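Lists added after the values were seen, and given without a test, extend some groups above. Of 20 iron-deficiency genes, 15 were tested, 14 differences FyPP3DN minus nrp1 nrp2 without ABA were above 0 with a median of 0.42, and BHLH38 and BHLH100 were called. At 8 of the 15 the groups did not overlap, with FyPP3DN higher, beside 4.57% of all genes tested. BHLH39, a close relative of BHLH38, had 7.3, 4.26 and 4.75 FPKM in FyPP3DN, against 1.8, 2.12 and 1.83 in nrp1 nrp2 (1.11, limma adjusted p = 0.104). The regulators BHLH101 and PYE had 0.68 and 0.53, the iron transporter IRT1 had 0.39, and FIT, the partner of these factors, had -0.31, none of them called. With ABA the median of the same list was 0.02 and no member was called.

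The ferritins, which store iron, had a median of -0.09 over 4 genes, with FER1 at -0.50 (limma adjusted p = 0.24) and none called. Of the camalexin genes 4 were tested and all 4 differences were above 0, with a median of 0.60. CYP71A12 was called, while WRKY33 had 0.73 and PAD3 0.48 and neither was called.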
